A study of Mus musculus with 6 samples.

Results

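Libraries labelled Blimp-1-deficient (CKO) were compared with control libraries (WT) of splenic CD4 T cells from NOD mice, a strain with spontaneous autoimmune diabetes. The comparison takes 4 of the 6 libraries of the series, 2 a group, and every gene of the table. Both groups came from mice 12 weeks old; cells were sorted as total CD4 T cells, described as steady-state, and were not stimulated again through the T cell receptor. The genotype of one group is given as WT and that of the other as a Blimp1 knockout; the third group, BTg, is given as Blimp-1 overexpression and enters here only to estimate the spread and for levels side by side. The labels name no Cre driver, no deleted exon and no promoter of the transgene, and they leave unsaid whether the 2 libraries of each group are from different mice. P-values therefore cover only the spread from library to library, which may be technical. In such bulk libraries, fewer cells of a type and less RNA per cell cannot be told apart.

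Blimp-1, encoded by Prdm1, is a DNA-binding zinc-finger repressor best known as the factor that drives B cells to become plasma cells. In CD4 T cells it is found in effector and regulatory cells and opposes Bcl6, the repressor on which T follicular helper (Tfh) cells depend. Tfh cells sit in B cell follicles, make interleukin-21 and carry the receptors CXCR5, PD-1 and ICOS. A short core of the Blimp-1 recognition sequence is GAAAG, and GAAAGTG is a longer form.

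The promoters of Pdcd1, Tigit and Ccr4 are shown because these were among the genes with the widest separation of the groups and because each holds the short core. The windows run from 250 bases before to 50 bases after the RefSeq start of each gene on GRCm38.p6, are read 5′ to 3′ on the gene's own strand, and carry GAAAG or its reverse complement CTTTC in capitals. Pdcd1 has 1 copy, Tigit has 1 and Ccr4 has 2, all 4 as CTTTC.
Pdcd1, chr1:94052504-94052803, minus strand: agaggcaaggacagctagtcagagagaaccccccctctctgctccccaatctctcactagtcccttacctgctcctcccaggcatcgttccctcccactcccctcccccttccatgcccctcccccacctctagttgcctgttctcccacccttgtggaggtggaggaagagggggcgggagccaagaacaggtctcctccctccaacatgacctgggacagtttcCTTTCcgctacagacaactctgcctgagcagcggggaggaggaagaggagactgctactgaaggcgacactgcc
Tigit, chr16:43664135-43664434, minus strand: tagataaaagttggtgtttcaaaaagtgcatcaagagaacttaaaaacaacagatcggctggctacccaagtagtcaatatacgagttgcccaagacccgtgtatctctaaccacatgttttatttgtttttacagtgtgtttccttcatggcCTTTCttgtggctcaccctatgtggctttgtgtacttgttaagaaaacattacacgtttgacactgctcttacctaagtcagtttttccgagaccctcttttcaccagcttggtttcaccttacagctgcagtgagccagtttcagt
Ccr4, chr9:114496495-114496794, minus strand: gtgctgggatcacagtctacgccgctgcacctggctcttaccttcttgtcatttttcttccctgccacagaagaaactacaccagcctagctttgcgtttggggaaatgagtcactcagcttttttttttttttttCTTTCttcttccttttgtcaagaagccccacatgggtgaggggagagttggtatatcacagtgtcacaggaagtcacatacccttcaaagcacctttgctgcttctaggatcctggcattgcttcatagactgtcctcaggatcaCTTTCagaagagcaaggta
The copy nearest the 3′ end of the Ccr4 window is part of the longer form GAAAGTG, searched on both strands as well. The core is common. It was found in 57.1% of the 27025 genes with a promoter window, in 6 of the 11 windows found for the 15 genes described below as most clearly higher, and in 6 of the 8 found for the 15 most clearly lower. GAAAGTG was found in 4.77% of all genes, in 1 of the 11 (Ccr4) and in 1 of the 8 (Pdlim4). A match is a run of letters and not a measured binding site, since no binding was measured in the series.

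Prdm1 itself (ENSMUSG00000038151, GRCm38 chr10:44437177-44528501, minus strand) was not lower in the libraries labelled CKO. Both were above both controls, at 0.849 and 0.669 against 0.458 and 0.628 FPKM, which are reads scaled to gene length and library size. The log2 difference was 0.19 (SE 0.26; limma adjusted p = 1). Whole-gene reads include exons that a partial deletion would leave in place. Markers of plasma cells were also higher in both labelled libraries, 10 of 10 tested beside 11.5% of all genes, and highest in replicate 1. The part of plasma cells in the Prdm1 reads was not tested. The direction goes against the label, so every group difference below is one between libraries labelled CKO and WT.

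The 4 libraries held 15259455 to 17799091 reads counted on genes. Replicate 1 of the libraries labelled CKO stood apart. Of its reads, 1.69% lay on neutrophil markers, against 0.0187% and 0.0438% in WT and 0.0514% in the other labelled library. Of 12 neutrophil markers tested, 8 were above both controls in both labelled libraries. Plasma cell markers took 1.95% of its reads, against 0.179% and 0.28% in WT and 0.503% in replicate 2, and 10 of 10 tested were above both controls in both. All 4 B cell markers tested were above both controls in replicate 1, beside 27.4% of all genes. B cell markers took 1.23% of its reads against 0.273% to 0.373% in the other 3 libraries. Markers of the sorted cells were present in every library: Cd4 stood at 93.7 and 81.7 FPKM in WT and 53.8 and 93.7 in the libraries labelled CKO, and Cd3e at 60.1 and 78 against 36.9 and 77.5. Among genes on the marker lists, 0 were without a read in all 4 libraries. Cd8a, the defining gene of CD8 T cells, had 3, 7, 5 and 13 reads in the order WT 1, WT 2, CKO 1, CKO 2. The other CD8 T cell markers held more. In the same order Cd8b1 had 213, 95, 44 and 105 reads, Gzmm 33, 27, 20 and 38, and Ctsw 810, 741, 1159 and 1222. With reads scaled to library size, Cd8b1 was narrowly lower in both labelled libraries. Replicates differed by a median of 0.47 on the log2(FPKM + 1) scale in the libraries labelled CKO and by 0.32 in WT, and 1598 against 920 of 10798 genes lay at least 1 apart.

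**Figure D1:**
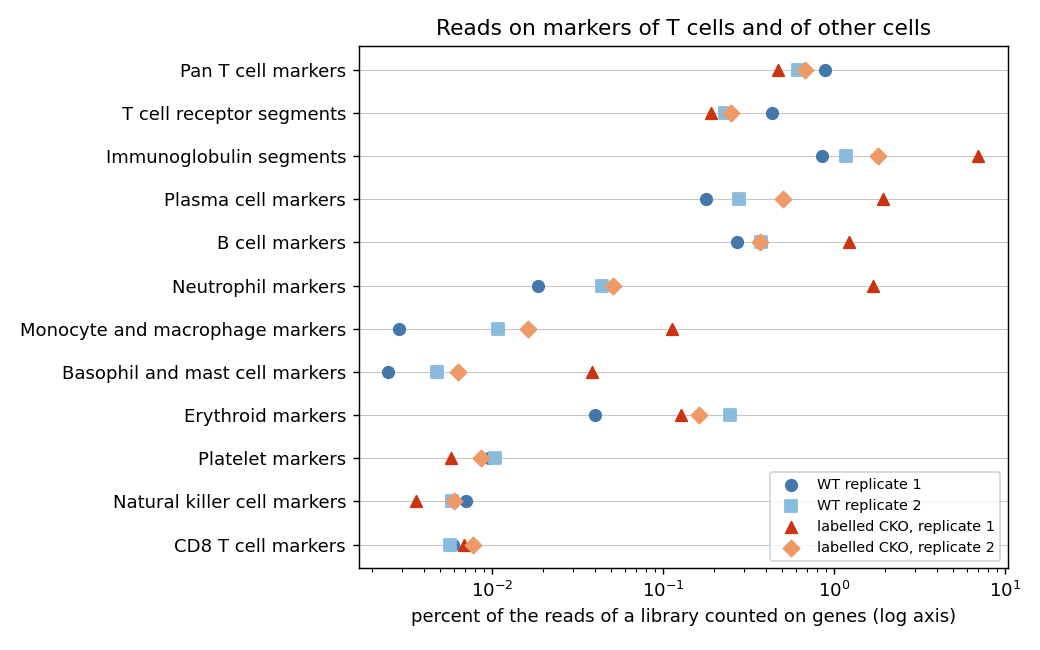
Reads on marker lists as a percentage of each library's reads counted on genes (horizontal log axis), 1 point per library. Replicate 1 labelled CKO lies to the right of the other 3 libraries for plasma cell (1.95%), neutrophil (1.69%), B cell (1.23%), basophil and monocyte markers, and to the left of them for pan T cell markers (0.469%).

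No single gene passed the threshold. Among the 10798 genes that reached 1 FPKM in 2 or more of the 6 libraries, limma called 0 (0%) at a Benjamini-Hochberg adjusted p under 0.05, and limma voom on recovered reads also called 0 of 15927. Without replicate 2 labelled CKO, so with replicate 1 alone on that side, limma called 81, and without replicate 1 it called 0. With no filter on low values it called 65. At an unadjusted p under 0.05 there were 454 genes (4.2%), namely 336 higher genes (3.11%) and 118 lower (1.09%). Genes were therefore ranked by whether the groups overlapped. Both labelled libraries were above both controls for 1241 genes (11.5%) and below both for 968 (8.96%), while the group mean was higher for 45.4% of genes and lower for 54.6%. The 11.5% and 8.96% are the background for the counts, in FPKM, of list genes higher or lower in both labelled libraries. With each library centred on its median the split was 1174 higher and 1501 lower, and with quantile normalization 1205 and 1567. Of the 1241, 90 passed the filter on low values only through the 2 libraries labelled CKO and so had to be higher.

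Wide separations were mostly immunoglobulin genes. Both labelled libraries lay at least 1 above both controls on the log2(FPKM + 1) scale for 76 genes (0.704%), and 56 of these were immunoglobulin segments. Only 13 were other named protein-coding genes. Both lay at least 1 below both controls for 6 genes (0.0556%), and 0 of those was a named protein-coding gene.

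Of the 15 protein-coding genes with the widest gap on the higher side, 9 differed by less than 1.4-fold between the 2 libraries labelled CKO. They are Ces2c, Cdk5r1, Pdcd1, Cxcr5, Tigit, Rgs16, Cxcr3, Fam43a and Ccr4. The other 6 were S100a6, Cebpa, Bhlhe40, Lag3, Anxa2 and Slpi, each higher in replicate 1 than in replicate 2 by more than that.

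**Figure D2:**
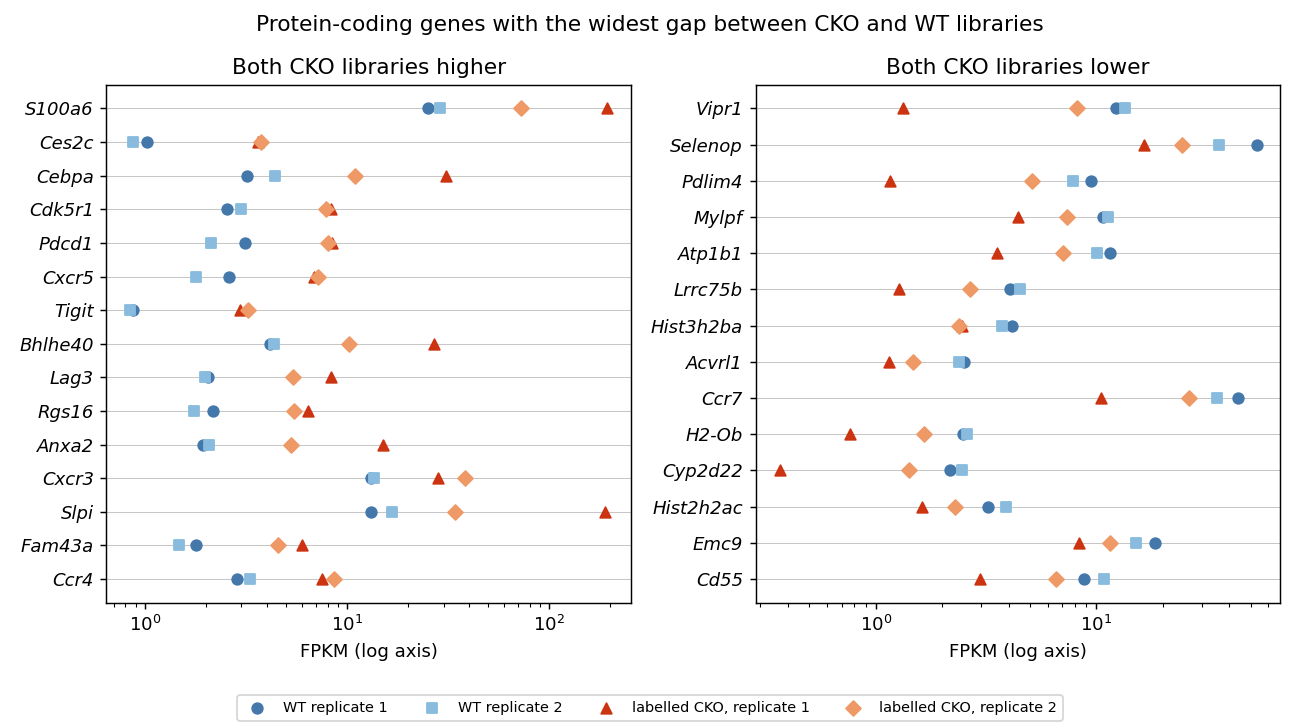
FPKM (log axis) in each WT and each labelled CKO library for the protein-coding genes with the widest gap between the nearest libraries of the groups, 15 on the higher side and 14 of the 15 on the lower side. On the left both labelled libraries lie close together for Ces2c, Cdk5r1, Pdcd1, Cxcr5 and Tigit; on the right replicate 1 labelled CKO lies far below replicate 2 for Vipr1 (1.33 against 8.14 FPKM) and Pdlim4 (1.16 against 5.08).

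The coinhibitory receptors, which restrain T cells when engaged, gave 3 of these 15 genes. Pdcd1, encoding PD-1 (chr1:94038305-94052553, minus strand), stood at 3.12 and 2.13 FPKM in WT and 8.37 and 8.03 in the libraries labelled CKO. The labelled pair lay close together and well above both controls. The log2 difference was 1.36 (SE 0.22; limma adjusted p = 0.535). Tigit, a receptor for ligands of the nectin family (chr16:43648867-43664146, minus strand), stood at 0.869 and 0.845 FPKM in WT against 2.96 and 3.25, a log2 difference of 1.14 (SE 0.20; limma adjusted p = 0.636). Neither WT library reached 1 FPKM, and Tigit passed the filter only through the labelled pair. Lag3, a CD4-related receptor for class II molecules (chr6:124904361-124911705, minus strand), stood at 2.06 and 1.98 FPKM in WT against 8.33 and 5.37, a log2 difference of 1.35 (SE 0.24; limma adjusted p = 0.636). Here replicate 1 was the higher of the pair. Among 9 coinhibitory receptors tested, of 17 listed, 6 were higher in both labelled libraries and 0 lower, against 11.5% and 8.96% of all genes. The median log2 difference was 0.39 over the list and -0.03 over all genes. Ctla4, Cd200 and Pvrig completed the 6, with Ctla4 at 7.8 and 6.05 FPKM in WT and 8.62 and 8.31 in the labelled pair, a gap much narrower than that of Pdcd1. Of the receptors under the filter, Havcr2, encoding TIM-3, had 15 and 12 reads in WT against 36 and 19. Cd101 had 150 and 115 against 115 and 123, Cd160 212 and 84 against 66 and 114, and Cd200r1 493 and 347 against 350 and 492, none of them higher in both labelled libraries.

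Of the lists of T cell functions, the genes of Tfh cells had the largest share higher in both labelled libraries. Of 22 listed, 18 passed the filter, and 14 of these were higher in both libraries labelled CKO and 0 lower; the median log2 difference was 0.90, being 1.11 in replicate 1 and 0.68 in replicate 2, where all genes had -0.15 and 0.11. Il21 and Sostdc1 passed the filter only through the labelled pair and so had to be higher, and Cebpa, described below with the myeloid genes, is also among the 14. The list was chosen with results of these libraries known, so its count describes them and is not independent evidence. Cxcr5, the receptor for the follicular chemokine CXCL13, stood at 2.61 and 1.79 FPKM in WT against 6.82 and 7.19, a log2 difference of 1.34 (SE 0.22; limma adjusted p = 0.535). Its exons overlap those of Bcl9l, and the counting is not stated to use strand. Icos, a costimulatory receptor of the CD28 family, stood at 3.23 and 2.75 against 7.69 and 6.29 FPKM. Rgs16, a regulator that shortens signalling from chemokine receptors, stood at 2.16 and 1.74 against 6.42 and 5.45 FPKM, and Maf, a transcription factor that drives Il21, at 5.3 and 5.96 against 9.54 and 13.7 FPKM. For all 4 the groups did not overlap, and Maf was the one with replicate 2 clearly above replicate 1.

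The other Tfh genes moved apart by less or unevenly. Il21 stood at 0.576 and 0.562 FPKM in WT against 2.72 and 1.26, and Sostdc1 at 0.169 and 0.076 against 3.01 and 1.01. Bcl6 stood at 1.17 and 1.6 against 2.42 and 2.83 FPKM, a log2 difference of 0.61 (SE 0.21; limma adjusted p = 1). Irf4, which plasma cells also express, stood at 1.13 and 1.82 against 4.33 and 3.32 FPKM, Pou2af1, a coactivator of B cells too, at 1.42 and 1.93 against 5.71 and 3, and Batf at 4.17 and 2.54 against 8.13 and 4.97. In these 3 replicate 1 was above replicate 2, the order also seen for the plasma cell markers, and their part in these values was not tested. Cd40lg, the ligand through which T cells help B cells, went the other way in one library, with 4.93 and 3.94 FPKM in WT against 2.29 and 4.13. Sh2d1a, encoding the adaptor SAP, Btla and Slamf6 overlapped between the groups as well. With replicate 1 labelled CKO left out, 15 of the 18 were above both controls, against 37.3% of all genes.

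Of 15 genes reported as repressed by Blimp-1, 11 were tested. Both labelled libraries were higher for 5 of them, Cxcr5, Pdcd1, Bcl6, Il21 and Ifng, and lower for 0. Ifng, encoding interferon-gamma, had 0.859 and 0.429 FPKM in WT against 1.05 and 1.14 and passed the filter only through the labelled pair. Myc stood at 14.2 and 23.7 FPKM in WT against 16.1 and 21.5, so the controls enclosed the labelled pair. Id3, an inhibitor of E proteins, was at 27.8 and 22.9 against 26.1 and 42.6, and Tcf7, encoding TCF-1, at 33.6 and 35.6 against 17.5 and 34. Each separated from WT in 1 labelled library only, Id3 in replicate 2 and Tcf7 in replicate 1. Il2, a textbook Blimp-1 target, was too low to compare, with 7 and 1 WT reads against 8 and 4. Il10, which Blimp-1 is known to promote, had 11 and 2 reads against 4 and 5.

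Chemokine receptors steer where T cells go, and 6 of the 12 tested were higher in both labelled libraries and 3 lower, with a median log2 difference of 0.70. Cxcr3, the receptor of type 1 cells for interferon-induced chemokines (chrX:101731535-101734269, minus strand), stood at 13.1 and 13.6 FPKM in WT against 28.3 and 38.3, a log2 difference of 1.25 (SE 0.26; limma adjusted p = 0.837). The WT values nearly coincided, and both labelled values were far above them. Ccr4, a receptor of type 2 and skin-homing cells (chr9:114490316-114504916, minus strand), stood at 2.84 and 3.3 against 7.47 and 8.62 FPKM, a log2 difference of 1.15 (SE 0.20; limma adjusted p = 0.636). Ccr6, a receptor of type 17 cells, stood at 0.957 and 1.06 against 2.17 and 2.5 FPKM, and Ccr8 at 1.15 and 0.821 against 1.99 and 2.36. Ccr10 stood at 0.62 and 1.39 against 4.57 and 2.42, with replicate 1 the higher. The receptor of cells that enter lymph nodes was on the other side: Ccr7 had 43.9 and 35.3 FPKM in WT against 10.5 and 26.2. Cxcr6 was also lower, at 15.2 and 7.78 against 7.19 and 7.18, where the controls differed from each other more than the nearer one did from the pair.

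Transcription factors of effector T cells were mostly higher. Both labelled libraries were above WT for 10 of 14 tested and below for 1, the median log2 difference being 0.63; 1 of the 10, Ikzf2, passed the filter only through the labelled pair. Zbtb32, a zinc-finger repressor of activated lymphocytes (chr7:30589681-30598909, minus strand), stood at 1.76 and 1.53 FPKM in WT against 4.15 and 4.7, a log2 difference of 1.04 (SE 0.19; limma adjusted p = 0.644). Hif1a, the oxygen-sensing factor, stood at 3.51 and 3.82 against 7.77 and 6.95, a log2 difference of 0.84 (SE 0.19; limma adjusted p = 0.876). In both genes the pairs were tight and far apart relative to their own spread. Bhlhe40, a repressor of effector T cells and myeloid cells, stood at 4.15 and 4.36 FPKM against 26.8 and 10.2. Its level in replicate 1 was the outlying value of the 4.

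Genes on none of the lists were also among the 15. Ces2c, a carboxylesterase (chr8:104847068-104854483, plus strand), stood at 1.02 and 0.871 FPKM in WT against 3.61 and 3.75, a log2 difference of 1.27 (SE 0.20; limma adjusted p = 0.535). Cdk5r1, the activating subunit p35 of the kinase CDK5 (chr11:80477023-80481184, plus strand), stood at 2.53 and 3 against 8.33 and 7.89 FPKM, a log2 difference of 1.28 (SE 0.20; limma adjusted p = 0.535). Fam43a (chr16:30599723-30602797, plus strand) stood at 1.79 and 1.47 against 5.97 and 4.55 FPKM, a log2 difference of 1.24 (SE 0.22; limma adjusted p = 0.636). In all 3 genes the lower labelled library exceeded the higher control more than the replicates of either group differed. Myo1f, a myosin of blood cells, and Apol11b were chosen after their values were seen, as genes at least 1 log2 above both controls in replicate 2. Myo1f stood at 1.69 and 2.87 FPKM in WT against 6.06 and 7.01, and Apol11b at 0.0181 and 0.134 against 1.28 and 1.8. Apol11b passed the filter only through the labelled pair and so had to be higher.

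Several of the 15 were, like the markers of some other cells, highest in replicate 1. Slpi, a protease inhibitor of neutrophils and epithelia, stood at 13.1 and 16.7 FPKM in WT against 188 and 34.3. Cebpa, a factor of myeloid precursors whose exons overlap a predicted gene, stood at 3.21 and 4.38 against 31 and 10.9, S100a6 at 25 and 28.8 against 194 and 72.2, and Anxa2 at 1.94 and 2.08 against 15 and 5.25. In all 4 replicate 1 was more than 2-fold above replicate 2, and replicate 2 was itself above both controls. For S100a6 and Anxa2 the controls lay close together, and Anxa2 is also on the list of effector and memory genes. Neutrophil markers had the same order: 8 of 12 tested were higher in both labelled libraries. S100a8 stood at 7.55 and 24.5 FPKM in WT, controls that were farther apart, against 3612 and 43.8. The part of neutrophils and other cells in these 4 genes was not tested.

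Of 18 cytokines and TNF ligands tested, 10 overlapped between the groups. Both labelled libraries were higher for 7 and lower for 1, beside 11.5% and 8.96% of all genes. The median log2 difference was 0.16, being 0.01 in replicate 1 and 0.38 in replicate 2. Of the 7, 5 passed the filter only through the labelled pair, Csf1, Ifng, Il21, Lif and Tnfsf11. Lif, a cytokine of the interleukin-6 family, stood at 0.394 and 0.242 FPKM in WT against 1.26 and 1.24, and Csf1, the growth factor of macrophages, at 0.607 and 0.723 against 1.58 and 1.58. Tnfsf14, encoding LIGHT, stood at 5.12 and 3.37 against 7.3 and 6.5 FPKM. Gzmk, a granzyme of memory cells, stood at 0.565 and 0.191 against 1.83 and 2.47, a log2 difference of 1.20 (SE 0.26; limma adjusted p = 0.863). In Lif, Csf1 and Gzmk both controls were under 1 FPKM.

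Regulatory T cell genes were higher more often than lower, and costimulatory genes were mixed. Of 16 regulatory T cell genes tested, 10 were higher in both labelled libraries and 1 lower, with a median of 0.33. The shares of all genes were 11.5% and 8.96%. Of the 10, 3 passed the filter only through the labelled pair, Ikzf2, Lrrc32 and Tigit. Of 14 costimulatory receptors and ligands, 7 were higher in both and 2 lower, with a median of 0.09. Of the 7, 1 passed only through that pair, Tnfsf11. Tnfrsf4, encoding OX40, stood at 13.1 and 12.2 FPKM in WT against 22.4 and 19.3, and Nt5e, the ecto-enzyme CD73, at 2.46 and 2.25 against 4.28 and 5.03. Foxp3, the defining factor of regulatory T cells, stood at 5.07 and 5.99 against 6.02 and 8.88, so the nearest libraries almost touched. Dusp4 and Egr2, feedback genes of receptor signalling, had 0.995 and 1.05 FPKM in WT against 2.06 and 2.41, and 2.86 and 3.34 against 5.14 and 5.67. They were the only 2 of 20 immediate early and activation genes with both labelled libraries higher, and that list's median was -0.06.

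The lower genes depended far more on replicate 1. All 15 protein-coding genes with the widest gap on the lower side had a limma adjusted p of 1. Vipr1, the receptor for vasoactive intestinal peptide (chr9:121642716-121672954, plus strand), stood at 12.3 and 13.4 FPKM in WT against 1.33 and 8.14, a log2 difference of -1.58 (SE 0.61). From the mean of WT, replicate 1 lay at -2.57 and replicate 2 at -0.60 on the same scale. Ccr7 (chr11:99144196-99155077, minus strand) lay at -1.81 in replicate 1 and -0.57 in replicate 2. Pdlim4 stood at 9.44 and 7.81 against 1.16 and 5.08 FPKM, and Atp1b1, a sodium pump subunit, at 11.5 and 10.1 against 3.55 and 7.06. Hist3h2ba, a histone gene at 4.12 and 3.74 FPKM in WT, had the closest labelled pair of the 15, at 2.47 and 2.39. Selenop, a selenium transport protein whose exons overlap Ccdc152, stood at 53.2 and 36 against 16.5 and 24.5 FPKM.

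Naive T cell genes, those of cells that have not met antigen, were mostly lower. All 21 tested, of 22 listed, had a lower group mean; both labelled libraries were below both controls for 12 and above for 0. The median log2 difference was -0.64, being -1.19 in replicate 1 and -0.22 in replicate 2, against -0.15 and 0.11 over all genes. Lef1, a factor of naive cells, stood at 4.02 and 4.39 FPKM in WT against 0.84 and 2.96, and Satb1, a chromatin organizer, at 9.2 and 10.5 against 3.05 and 7.32. S1pr1, the receptor for exit from lymphoid organs, from the list of integrins and exit receptors, stood at 111 and 94.1 against 38.6 and 79.2. In each of these replicate 2 lay between WT and replicate 1. Il7r, the receptor for the survival cytokine interleukin-7, had 26.1 and 19.3 FPKM in WT against 9.2 and 19.1, with replicate 2 just under the nearer control. Pan T cell markers had medians of -0.62 in replicate 1 and -0.17 in replicate 2, and only Cd247 of 14 had both labelled libraries below both controls.

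Effector and memory genes mirrored this. Of 27 tested, 15 were higher in both labelled libraries, 2 of which (S100a4 and Tnfsf11) passed the filter only through that pair, and 3 were lower, with medians of 0.69 in replicate 1 and 0.52 in replicate 2. Itgb1, an integrin chain of memory cells, stood at 12.7 and 11.7 FPKM in WT against 18 and 19.4, and Il18rap, part of the interleukin-18 receptor, at 1.44 and 1.4 against 3.22 and 2.49. Their replicates were close. Lgals3 and S100a11, which myeloid cells also express, were instead much higher in replicate 1, at 13.1 and 23.5 FPKM against 3.53 and 4.53 in replicate 2. Nkg7, a granule protein of cytotoxic cells, stood at 20.2 and 17.4 in WT against 133 and 29.8.

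**Figure D3:**
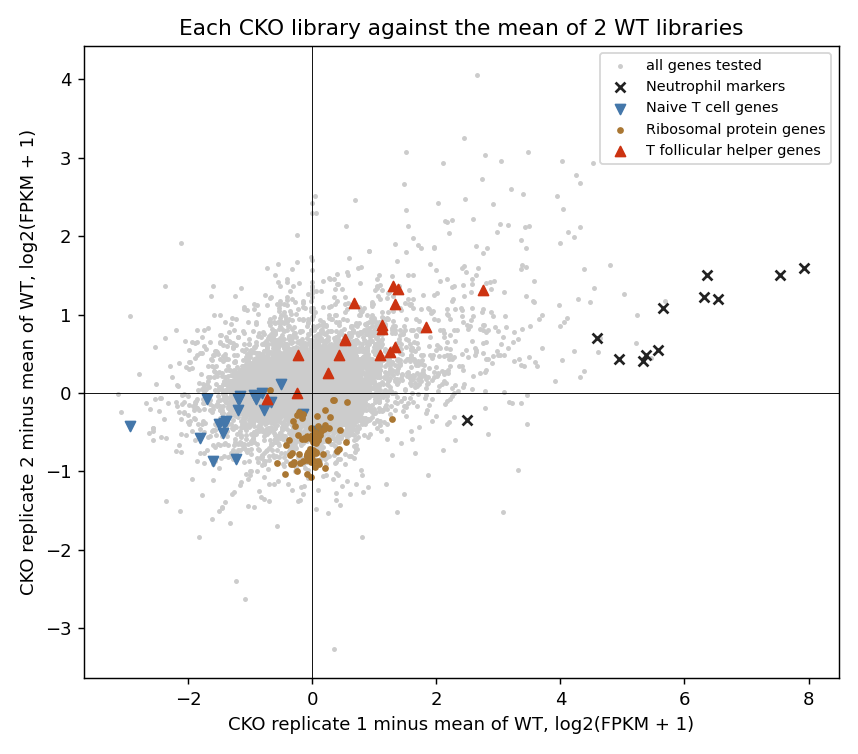
Difference of each labelled CKO library from the mean of both WT libraries on the log2(FPKM + 1) scale, replicate 1 on the horizontal axis and replicate 2 on the vertical axis, 1 point per gene tested. Tfh genes lie mostly up and right, naive T cell genes to the left, neutrophil markers far right (median 5.61 in replicate 1, 0.90 in replicate 2) and ribosomal protein genes mostly below the horizontal line.

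Each labelled library was then judged alone. In replicate 1, 448 genes (4.15%) were at least 1 above both controls and 382 (3.54%) at least 1 below. Of the 448, 171 were immunoglobulin segments. In replicate 2 the counts were 131 (1.21%) and 18 (0.167%), and 63 of the 131 were immunoglobulin segments. Of those 131, 76 were at least 1 above in replicate 1 as well, and of the 19 other named protein-coding genes among them, all 19 had both labelled libraries above both controls. They include Pdcd1, Cxcr5, Tigit, Ccr4, Cxcr3, Maf, Zbtb32, Gzmk, Ces2c and Cdk5r1. Of the 19, Tigit, Gzmk and Apol11b passed the filter only through the labelled pair and so had to be above both controls in both.

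The 8 genes with the widest gap in replicate 1 while replicate 2 was near WT included Prtn3, Elane and Mpo, which encode granule proteins of neutrophil precursors. Prtn3 stood at 15.8 and 32.4 FPKM in WT, 990 in replicate 1 and 32 in replicate 2. Elane stood at 16.5 and 35.8, 782 and 33.5, and Mpo at 18.8 and 42.6, 707 and 46.7. In all 3 WT replicate 2 was about the level of replicate 2 labelled CKO. Plac8, Serpinb1a, Hp, Ifitm6 and Retnlg completed the 8, at 57.5 to 126 FPKM in replicate 1 and 1.31 to 4.33 in replicate 2.

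Genes low mainly in replicate 1, with replicate 2 near WT, included regulators of T cells. Tsc22d3, encoding GILZ, a glucocorticoid-induced inhibitor, stood at 100 and 78.8 FPKM in WT, 19.3 in replicate 1 and 75.2 in replicate 2. Grap2, encoding the adaptor GADS of the T cell receptor, stood at 22.4 and 21.4, 5.88 and 19, and Als2cl at 37.3 and 48, 4.67 and 31.4. In Tsc22d3, Grap2 and Als2cl replicate 2 was below both controls as well, by less. Of 32 T cell receptor signalling genes tested, 29 were below both controls in replicate 1 and 6 in replicate 2, beside 48.9% and 18.6% of all genes. T cell receptor segments followed, with medians of -1.0 and -0.03 over 169 segments.

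Genes high in replicate 2 alone were separated by less. Il2rb, the beta chain of the interleukin-2 receptor, stood at 12.2 and 12.4 FPKM in WT, 14.5 in replicate 1 and 21.6 in replicate 2. Ptpn22, a phosphatase and a known diabetes risk gene, stood at 5.93 and 5.89, 6.66 and 10.3, and Usp18, an interferon-induced protease, at 8.77 and 10.4, 11 and 18.5. For these 3 both labelled libraries were above WT, replicate 1 by little. Id3, Arl10, Pear1, Baiap3 and Plk3 completed the 8.

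Among the 8 genes low in replicate 2 alone were Rps21 and Rps29 of the ribosome and the mitochondrial genes mt-Co2 and mt-Atp6. Rps21 stood at 2087 and 841 FPKM in WT, 1243 in replicate 1 and 648 in replicate 2, and mt-Co2 at 73.3 and 17.1, 30.3 and 13.1. The 2 WT libraries were farther apart than replicate 2 was from the nearer one. Of 76 ribosomal protein genes tested, 74 were below both controls in replicate 2 and 7 in replicate 1, beside 18.6% and 48.9% of all genes. Their share of reads was 15.3% and 7.5% in WT, 10.2% in replicate 1 and 6.66% in replicate 2. Without WT replicate 1 the list's median turned from -0.35 to 0.15, and the log2 differences of Rps21 and mt-Co2 turned to 0.10 and 0.22. Ndufb8, a subunit of respiratory complex I, stood at 23 and 22.7 FPKM in WT, 25.3 in replicate 1 and 12.4 in replicate 2, and its controls were close together. The other 3 were Hist1h1c, a linker histone gene at 20.2 and 14 in WT, 21.7 and 9.33, Mfsd3 at 19.1 and 18.1, 18.9 and 14.4, and Tcta at 5.14 and 5.46, 4.77 and 3.94.

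Cell cycle genes depended on the controls. All 36 tested had a higher group mean, with a median of 0.80, but both labelled libraries were above both controls for 2 only, Cenpf and Tyms. Cenpf, a kinetochore protein, stood at 1.66 and 6.5 FPKM in WT against 8.81 and 7.65. Replicate 1 was above both controls for 32 of the 36 and replicate 2 for 3, beside 27.4% and 37.3% of all genes. The median was 0.13 without WT replicate 1 and 1.49 without WT replicate 2. Glycolysis genes were higher in replicate 1, by a median of 0.96, and near the background in replicate 2, at 0.10. Pgam1 stood at 5.56 and 8.02 FPKM in WT against 23.8 and 11.

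In 3 further lists most genes overlapped between the groups, as did 8589 of all 10798 genes tested. Over all genes, both labelled libraries were higher for 11.5% and lower for 8.96%, with medians of -0.15 in replicate 1 and 0.11 in replicate 2. JAK-STAT genes, through which interleukin-21 signals, had 2 of 23 higher in both and 2 lower, with medians of -0.17 and 0.20. Chromatin modifiers and Blimp-1 corepressors had 0 of 33 higher and 2 lower, with medians of -0.27 and 0.23. Of 24 cytokine receptor chains, 4 were higher and 4 lower. Il4ra, the interleukin-4 receptor, was among the lower at 13.1 and 10.5 FPKM in WT against 4.95 and 8.97. Of 24 interferon-stimulated genes, 7 were higher in both and 1 lower, beside 11.5% and 8.96% of all genes. Of the 24, 12 were above both controls in replicate 1 and 12 in replicate 2, beside 27.4% and 37.3% of all genes, with medians of 0.05 and 0.14. Oas1a, which makes the activator of RNase L, stood at 0.504 and 0.89 FPKM in WT against 3.15 and 2.06.

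**Figure D4:**
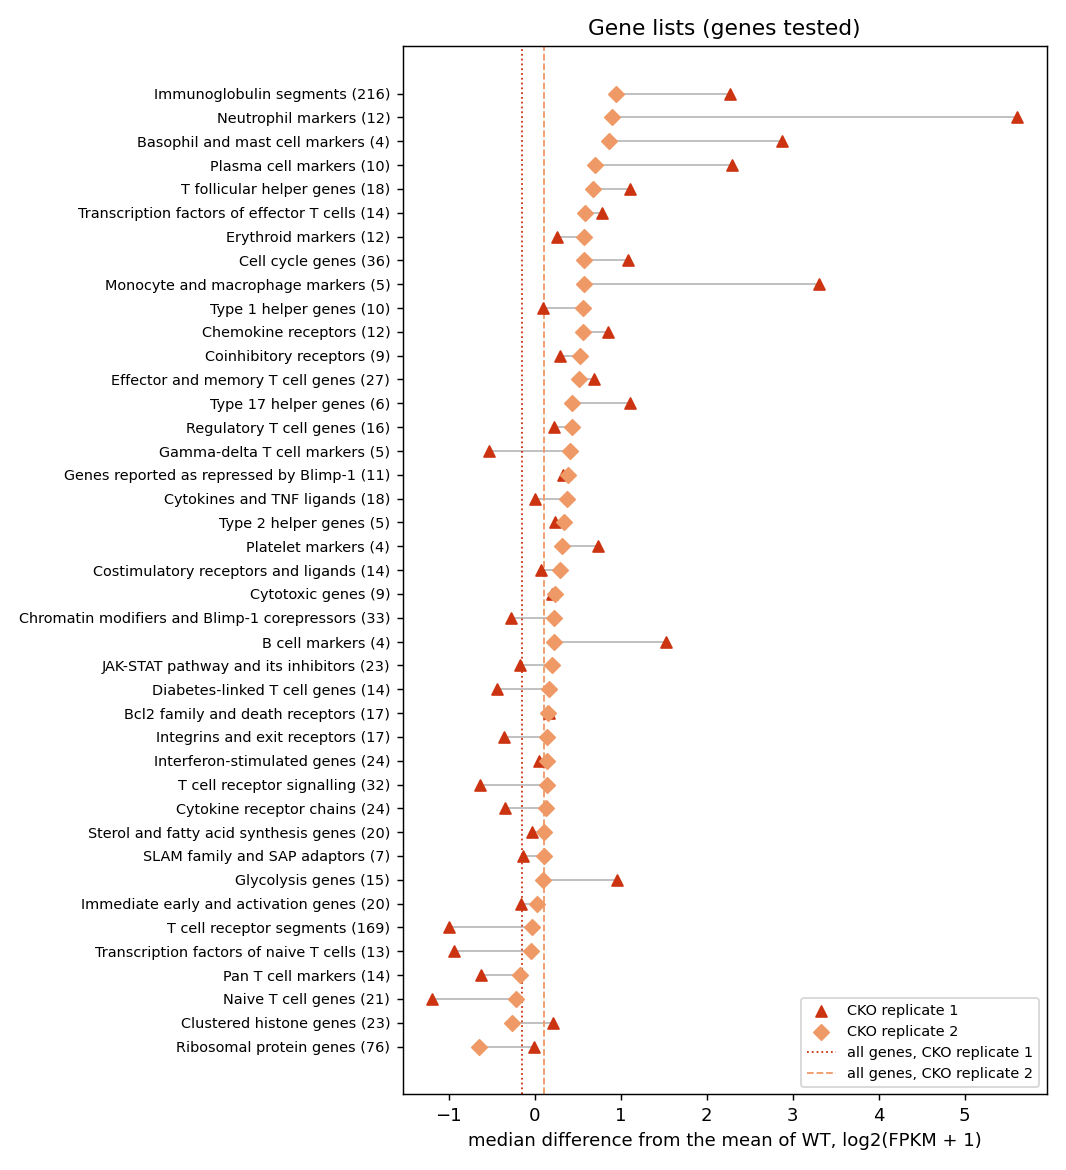
Median difference from the mean of WT, log2(FPKM + 1), of each gene list with at least 4 genes tested (number in brackets), in replicate 1 (triangles) and replicate 2 (diamonds) labelled CKO; vertical lines give the medians over all genes, -0.15 and 0.11. Both points lie right of both lines for Tfh genes (1.11 and 0.68), and left of both for naive T cell genes (-1.19 and -0.22).

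Long genes were hidden by the unit. The deposited FPKM divide by the genomic span of a gene with its introns, so a gene with long introns can hold many reads and stay under 1 FPKM. Reads recovered from the values were compared with limma voom for 77 genes of the function lists that were under the FPKM filter. Both labelled libraries were higher in library-scaled reads for 37 of them and lower for 3. Among all 5796 genes under the filter with enough reads the shares were 22.5% higher and 10.7% lower, and among all 15927 genes in that fit 15.6% and 9.43%. The genes named in the next sentences were chosen after their values were seen. Tox2, a factor of Tfh cells whose span is 97649 bases for 3401 bases of exon, had 150 and 180 reads in WT against 679 and 843. Its voom log2 difference was 2.1 (SE 0.33; limma voom adjusted p = 0.389), and the groups were far apart. Itgae, the integrin chain CD103, had 156 and 205 reads against 752 and 518, and Runx2, a factor of bone and of activated T cells, 164 and 299 against 671 and 654. Neither pair of replicates differed as much as the groups did.

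Genes of type 17 cells were among those under the filter. Il23r, the receptor for interleukin-23, had 43 and 33 reads in WT against 173 and 119, a voom log2 difference of 1.80 (SE 0.48; limma voom adjusted p = 0.689). Il1r1, the signalling receptor for interleukin-1, had 109 and 155 against 446 and 370, and Ahr, the aryl hydrocarbon receptor, 79 and 114 against 221 and 276. Il22 had 0 and 1 reads against 18 and 13 and was under the filter for its few reads, its span being 5106 bases. It had enough reads for limma voom only in the labelled pair and so had to be higher. Il17a had 1 and 1 against 3 and 2 and was too low to compare. Rora, a factor of type 17 cells, had 607 and 607 reads against 1017 and 1312, and Nrp1, a surface receptor of regulatory T cells, 598 and 541 against 956 and 1239. All of these had both labelled libraries above both controls, in reads and in library-scaled reads. Il1r2 and Hk2 were higher mainly in replicate 1, with 648 and 565 reads there against 115 and 197 in replicate 2. Bach2, a repressor of naive and memory cells, was one of the 3 lower genes, with 2049 and 1879 reads in WT, 442 in replicate 1 and 1830 in replicate 2; the last of these was lower only narrowly and once reads were scaled to library size.

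**Figure D5:**
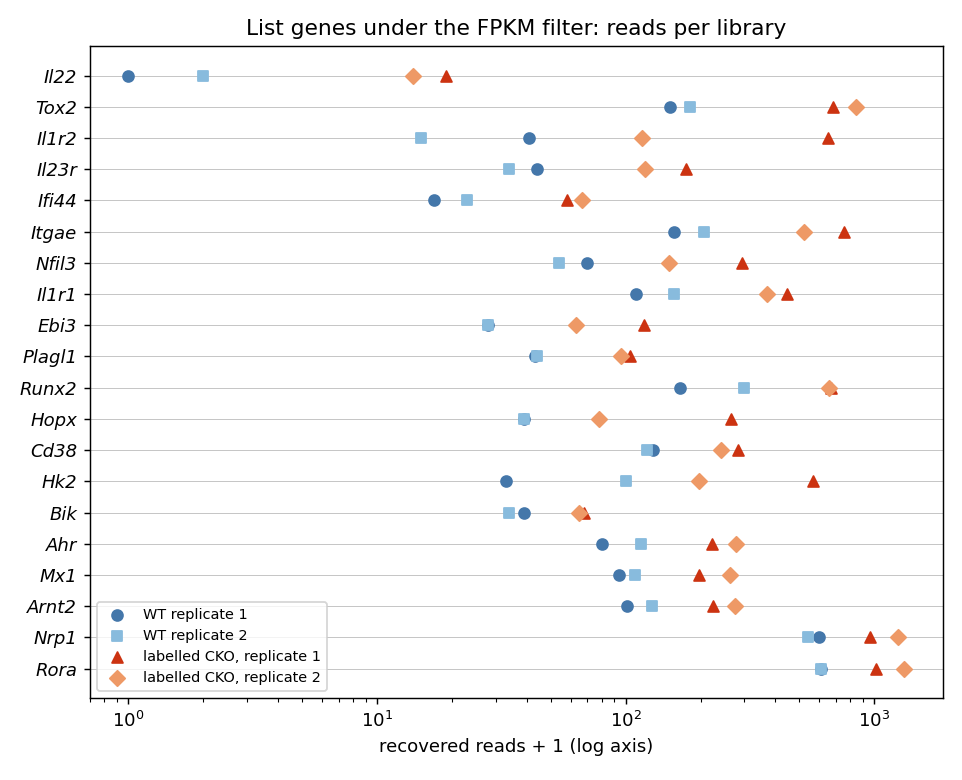
Recovered reads plus 1 per library (log axis) for the 20 function-list genes under the FPKM filter with the widest gap in limma voom library-scaled reads, either direction. Both labelled CKO libraries lie right of both WT libraries for all 20, with Tox2 at 679 and 843 reads against 150 and 180. Il22 entered that fit only through the labelled pair and so had to be higher.

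In the BTg libraries, which share the same WT libraries as their reference, the levels of several of these genes were low. Cxcr5 stood there at 0.914 and 0.685 FPKM, Pdcd1 at 1.38 and 1.18, and Ces2c at 0.339 and 0.411. Vipr1 stood at 19.5 and 22.9 FPKM, above both the WT and the labelled CKO libraries. Other genes had no such opposite order. Ccr7, lower in the labelled CKO libraries, was below both controls in BTg as well, at 25 and 24.5 FPKM. Cdk5r1, at 2.37 and 2.92, and Hif1a, at 3.91 and 3.69, were near WT in BTg. The genes given here for BTg were chosen after their values were seen.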

How the data were processed

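Per the labels, RNA was isolated with TRIzol and made into NEBNext Ultra libraries. The submitters' processing notes name Trimmomatic 0.38, HISAT2 2.1.0, featureCounts 1.6.0 and GRCm38; settings, strand and annotation release: not given in the sources used here. FPKM values of 28914 genes were deposited, and all 28914 were matched to GENCODE M21. They are whole reads, within 0.01, once length is set to the transcripts' median genomic span, which in protein-coding genes has a median of 3.07 times exon length.

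One limma fit (version 3.58.1, R 4.3.3; eBayes with trend) took all 6 libraries on log2(FPKM + 1), which understates differences of low genes, for genes at 1 FPKM or more in 2 or more libraries. The threshold was a Benjamini-Hochberg adjusted p of 0.05. For 2 libraries against 2 the smallest two-sided exact permutation p is 0.333. Limma voom used genes with 10 or more reads in 2 libraries. The fit was tested on simulated data.

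Members and the 44 gene lists were chosen with earlier results of these data known. Named genes were Prdm1, the 15 protein-coding genes per direction with the widest gap between the nearest libraries whose higher mean reached 2 FPKM, up to 6 per list by gap, all Tfh and Blimp-1-repressed genes, and 8 per direction for each labelled library alone, where the other lay within 0.25 of the WT range. Predicted genes, pseudogenes and antigen receptor segments were counted and not named. Named genes that fall outside this rule, such as Foxp3, Cd4, Cd3e, Havcr2, Il2 and Il10, were chosen after their values were seen. One of the 15 genes on the lower side and 1 other gene are not reported here. Promoters are RefSeq's. Figures were drawn with matplotlib 3.10.9.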

Additional observations from a re-analysis of the deposited data

How the results depend on the processing

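The count of genes at adjusted p under 0.05 was 0 in limma on all 6 libraries and 65 with no filter on low values (44 higher, 21 lower). Leaving out 1 library gave 0 to 81, the 81 without CKO replicate 2. The groups share the replicate numbers 1 and 2, and nothing in the labels ties equal numbers to one source. Deviations of equal numbers from their group means correlated over genes at 0.173 for WT and CKO, 0.469 for WT and BTg and 0.456 for CKO and BTg. With only 2 numbers a group these values cannot settle a pairing. With a replicate block the count was 0, with 709 genes at an unadjusted p under 0.05 against 454 without it; in the 4 libraries alone the block gave 0 and 525.

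Non-overlapping genes, 1241 higher and 968 lower, became 3886 and 2646 with no filter and 2477 and 1502 with limma voom. The lower count became 1501 with median centring and 1567 with quantile normalization. Leaving out 1 library, added after seeing the data, gave 2004 to 4032 higher and 2008 to 5278 lower, since fewer libraries must separate. Single-library counts moved with the scale. Genes at least 1 below WT in CKO replicate 1 numbered 942 with a pseudocount of 0.1 and 619 with 0.5. In CKO replicate 2 they numbered 71 and 40, 29 with quantile normalization and 11 with at least 2 FPKM in 2 libraries, and 234 were above at a pseudocount of 0.1. Limma voom gave 1350 above and 1697 below in replicate 1, and 514 and 97 in replicate 2. Exon length, added after seeing the data, gave 0 called genes and 1773 higher and 1269 lower.

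Of 202 named genes, 14 turned direction in some alternative, and 25 passed the threshold only without CKO replicate 2. Over the fits that each left out 1 library, the log2 difference ran from -0.34 to 0.09 for Btla, -0.76 to 1.66 for Fos, -0.79 to 0.35 for Hist1h1c, -0.35 to 0.02 for Mfsd3, -0.33 to 0.37 for Myc and -0.83 to 0.14 for Ndufb8. It ran from -0.15 to 0.36 for Nfatc1, -1.22 to 0.10 for Rps21, -1.26 to 0.18 for Rps29, -0.12 to 0.63 for Sh2d1a, -0.22 to 0.48 for Slamf6 and -0.55 to 0.49 for Spib. It ran from -2.52 to 0.25 for mt-Atp6 and -1.82 to 0.22 for mt-Co2. Quantile normalization gave -0.04 for Myc and 0.02 for Spib, and Spib was at 0.09 with a pseudocount of 0.1 and 0.18 with limma voom. The causes were not tested. Among lists, the erythroid median turned to -0.67 without WT replicate 1. No interval was computed for single shares of reads. In the limma fit on all 6 libraries the spread of each gene had 3 residual degrees of freedom of its own and 3 drawn from all genes.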
